A study of Rattus norvegicus with 12 samples.

Results

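Chemokines and chemokine receptors were represented by 57 probes for 50 genes among the 41012 non-control probes of the array, which stand for 36083 genes and unnamed probes. They were chosen by name alone: every probe whose gene name began with Ccl, Cxcl, Ccr or Cxcr and a digit, or was Cx3cl1, Cx3cr1, Xcl1 or Xcr1. Of the 50 genes, 32 encode ligands (37 probes) and 18 encode receptors or a receptor-like protein (20 probes). Names are those of the array's design, so Ccl21b is now called Ccl21 and Cxcr7 is now Ackr3, a scavenging receptor for Cxcl12. The RNA came from male Sprague-Dawley (CD) rats that were 10 weeks old and weighed 290 to 320 g at the start, and every sample is labelled 11 weeks. One set of rats received the antiarrhythmic drug amiodarone by mouth at 300 mg/kg each day for 10 days, and the control rats received its vehicle, methylcellulose at 1%. Left ventricle from the heart (kept in RNAlater, extracted with the Qiagen RNeasy kit) and whole blood (collected in PAXgene tubes, extracted with the PAXgene kit) were each measured in 3 pools of amiodarone rats and 3 pools of vehicle rats, 1 single-colour array a pool. The sources used here do not say how many rats made a pool or whether heart and blood pools came from the same rats.

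Chemokines are small secreted proteins that guide leukocytes along concentration gradients through receptors that couple to inhibitory G proteins. Inflammatory chemokines are induced at sites of injury and draw in neutrophils, monocytes and activated lymphocytes, whereas homeostatic chemokines such as Cxcl12, Ccl19 and Ccl21 direct the normal traffic of leukocytes and their precursors. In the heart the ligands are made by endothelium, fibroblasts, resident macrophages and muscle cells, and in blood the receptors sit on the circulating leukocytes themselves.

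Levels are given as the log2 processed signal of a probe minus the log2 of its array's 75th percentile, so that 0 is a signal at that percentile. This percentile was a signal of 134 ± 29.6 in heart vehicle, 121 ± 25.8 in heart amiodarone, 23.2 ± 2.66 in blood vehicle and 70.3 ± 14.9 in blood amiodarone (SD, n = 3 pools). In blood the groups therefore differed by 1.58 on the log2 scale before scaling, and in heart by -0.14, so the blood directions depend on the scaling, and values without scaling are given beside them. A probe was well above background, by the scanner software's own flag, at 21233 to 25032 spots on the heart arrays, 14459 to 15548 on the blood vehicle arrays and 20625 to 21245 on the blood amiodarone arrays. All 14 cardiomyocyte markers cleared this flag on every heart array and 1 to 3 of them on the blood arrays. In each tissue, pools 1 and 2 of both groups shared a slide and pool 3 of both groups lay on another. These are bulk samples, in which fewer cells of a type and less RNA per cell cannot be told apart.

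The 4 ligand genes that were higher in the amiodarone hearts are shown with the 250 bases before their annotated start (RefSeq, GRCr8, all on the minus strand of the chromosome and printed 5′ to 3′ along the gene), because they moved in the same direction in the same samples. They lie at chr10:68883367-68883616 (Ccl6), chr14:17479322-17479571 (Cxcl1), chr19:10209896-10210145 (Ccl17) and chr19:10270360-10270609 (Ccl22). Capitals mark matches, on either strand, to GGNNTTTCC (NF-kappaB-like), to the TATA box letters TATAAA or to the STAT6-like motif, which is TTC followed after any 4 bases by the reverse complement GAA, and no matches overlapped in these windows.
Ccl6 promoter: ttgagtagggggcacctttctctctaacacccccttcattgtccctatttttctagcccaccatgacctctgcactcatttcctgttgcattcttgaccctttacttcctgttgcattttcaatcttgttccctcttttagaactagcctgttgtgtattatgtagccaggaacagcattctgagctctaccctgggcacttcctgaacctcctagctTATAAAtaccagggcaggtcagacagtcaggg
Cxcl1 promoter: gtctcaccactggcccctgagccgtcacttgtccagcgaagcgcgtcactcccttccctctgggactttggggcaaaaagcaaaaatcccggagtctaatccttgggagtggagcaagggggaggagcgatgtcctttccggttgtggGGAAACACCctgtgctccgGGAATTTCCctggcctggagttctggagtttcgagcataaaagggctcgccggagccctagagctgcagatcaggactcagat
Ccl17 promoter: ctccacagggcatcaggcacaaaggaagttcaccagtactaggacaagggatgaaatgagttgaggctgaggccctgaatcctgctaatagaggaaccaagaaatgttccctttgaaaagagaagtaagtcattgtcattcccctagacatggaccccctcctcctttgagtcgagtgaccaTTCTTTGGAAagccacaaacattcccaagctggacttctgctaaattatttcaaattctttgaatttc
Ccl22 promoter: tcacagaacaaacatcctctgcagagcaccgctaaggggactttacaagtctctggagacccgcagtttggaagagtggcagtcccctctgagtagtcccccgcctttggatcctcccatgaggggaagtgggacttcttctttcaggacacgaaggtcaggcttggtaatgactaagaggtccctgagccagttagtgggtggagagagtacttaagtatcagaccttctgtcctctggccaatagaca
The Ccl6 window held a TATA box that began 32 bases before the start. The Cxcl1 window held 2 NF-kappaB-like matches, beginning 102 and 83 bases before the start, and the Ccl17 window held 1 STAT6-like match beginning 68 bases before it. These letters of the 3 motifs are not in the Ccl22 window. Of the 37 members whose promoter could be matched by symbol, 9 (24.3%) held an NF-kappaB-like match, against 5.19% of all 33469 promoters. A TATA box stood in 12 (32.4%), against 12.9% of all promoters. A STAT6-like match stood in 2 (5.41%), against 6.25%. A match is a description of the letters, not of binding.

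The probes for the main blood results are 60 bases long and are printed 5′ to 3′ as they stand on the array, with positions from the array's design on build rn4. The receptor Ccr1 and the ligand Ccl5 are shown because they rose in blood, and both Cxcr4 probes because they gave different answers there.
Ccr1, chr8:128694469-128694528, minus strand: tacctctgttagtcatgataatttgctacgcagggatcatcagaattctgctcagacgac
Ccl5, chr10:71606089-71609018, minus strand: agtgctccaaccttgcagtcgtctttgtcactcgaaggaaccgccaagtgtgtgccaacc
Cxcr4 first probe, chr13:41309106-41309165, minus strand: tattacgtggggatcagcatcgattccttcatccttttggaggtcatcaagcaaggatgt
Cxcr4 second probe, chr13:41308900-41308959, minus strand: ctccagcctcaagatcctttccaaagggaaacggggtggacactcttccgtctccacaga
The positions of the Ccl5 probe span more of the genome than its own length. The 2 Cxcr4 probes lie close together in the same gene, with a gap between them.

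The members that could be tested differed between heart and blood. A gene entered the tests of a tissue if one group there had a probe well above background in each of its 3 pools, which 27 genes met in heart (22 ligands and 5 receptors) and 21 in blood (10 ligands and 11 receptors). Of these, 14 were tested in both tissues, 13 in heart alone and 7 in blood alone. Of all 36083 genes and unnamed probes, 17775 were tested in heart, 15929 in blood and 13249 in both. The 13 heart-only genes were 12 ligands and the scavenging receptor Cxcr7. All 7 blood-only genes were receptors: Ccr2 of monocytes, Ccr6, Ccr7 and Cxcr5, which guide lymphocytes through tissues and lymphoid organs, Cxcr3 and Cxcr6 of activated T cells, and Cx3cr1, the receptor for Cx3cl1. Cxcr3 was nonetheless well above background on 2 of 3 arrays in each heart group. Ccr2 and Ccr6 entered only through the amiodarone blood arrays, with 0 of 3 vehicle blood arrays well above background. The other 16 genes were tested in neither tissue. Of them, 10 were not well above background on any of the 12 arrays: Ccl9, Ccl11, Ccl20, Ccl26, Ccl28, Cxcl3, Cxcl6, Ccr8, Xcr1 and the receptor-like Ccr1l1. The remaining 6 (Ccl24, Ccl25, Cxcl2, Ccr3, Ccr4 and Ccr9) were seen on only some arrays of a group.

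**Figure D1:**
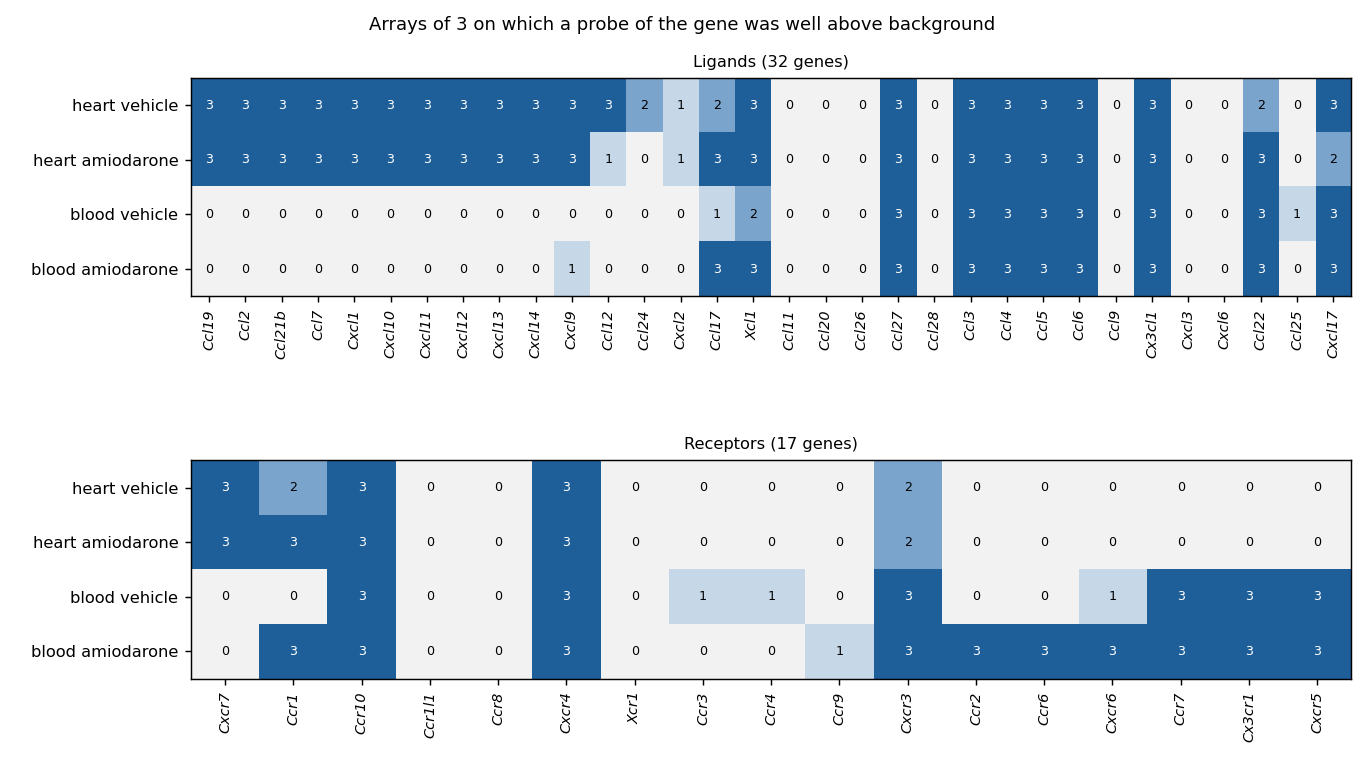
Number of arrays, of 3 in each group, on which at least 1 probe of a gene was well above background, for 49 of the 50 genes; genes stand in columns (ligands above, receptors below) and the 4 groups in rows. Ligands such as Ccl19, Ccl2 and Cxcl12 were at 3 in both heart groups and at 0 in both blood groups, whereas Ccr7, Cx3cr1 and Cxcr5 were at 3 in both blood groups and at 0 in both heart groups.

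Most members differed between the tissues. In the vehicle rats 31 of 34 tested members differed between heart and blood, 13 higher in heart and 18 lower, and 81.1% of all features did so (42.7% higher in heart and 38.4% lower). In the amiodarone rats 32 of 34 differed, 14 higher in heart and 18 lower, beside 80.6% of all features (39.6% higher and 41% lower). Without scaling, the vehicle count was 26, with 18 higher in heart and 8 lower, and the share of all calls that were higher in heart went from 52.7% to 83.2% (49.1% to 64% in the amiodarone rats). With normexp background correction, an alternative way of removing background, 7 members were higher in heart and 22 lower in both the vehicle and the amiodarone rats. Of all features 82.6% then passed in the vehicle rats (40% of the calls higher in heart) and 81.7% in the amiodarone rats (39.2%). Of the 22 ligands, 12 were higher in vehicle heart and 8 lower, against 15 and 4 without scaling and 6 and 11 after normexp correction. Of the 12 receptors 1 was higher and 10 were lower, against 3 and 4 without scaling and 1 and 11 after normexp correction. Where every array of a tissue was below background the difference is given as a lower bound on the scaled values. The dim side was set at the lowest signal well above background on its array, or at the probe's own value if that was higher.

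Cxcl12, the ligand of Cxcr4, was at least 99.9-fold higher in vehicle heart than in vehicle blood (fitted difference 8.84, adjusted p = 1.28e-10). The Ccr7 ligands Ccl21b and Ccl19 were at least 26.2-fold and at least 7.87-fold higher there. Cxcr7 was at least 9.41-fold higher in heart, Cxcl11, a ligand of Cxcr3, at least 6.74-fold, and Ccl2, the monocyte chemokine, at least 5.23-fold. Among genes measured in both tissues, Cx3cl1, the membrane-bound ligand of Cx3cr1, was higher in heart by 4.39. In the other direction, the ligand Ccl22 was at least 75.7-fold higher in blood through the probe compared. Its other probe was well above background on 2 of 3 vehicle heart arrays. The receptor Cxcr5 of B cells was at least 52.9-fold higher in blood, Cx3cr1 at least 26.5-fold and Ccr7 at least 19.6-fold. These bounds hold for the scaled values only. Without scaling the fitted heart minus blood went from -7.50 to -4.99 for Cxcr5, from -5.91 to -3.40 for Cx3cr1 and from -6.05 to -3.54 for Ccr7. For Ccl22 it went from -7.68 to -5.17. Of the ligands measured in both tissues and lower in heart, vehicle heart minus vehicle blood was -4.64 for Ccl5, -4.30 for Cxcl17, -3.35 for Ccl3, -3.31 for Ccl6 and -2.88 for Ccl4. The signs of the named differences were the same under each scaling tried, but without scaling Ccl3 (-0.83, adjusted p = 0.0567) and Ccl4 (-0.36, adjusted p = 0.293) did not pass, and Ccl6 (-0.80) and Ccl5 (-2.12) were smaller. The signs for Ccl17, Ccl27, Ccr1, Ccr2, Ccr10, Cxcr3 and Cxcr4, among others, in the vehicle rats changed with the scaling, and no direction is given for them. Slide and tissue cannot be told apart in these contrasts.

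In the left ventricle, amiodarone was accompanied by changes in 5 of the 27 members tested, all of them ligands. Ccl6, Ccl22, Cxcl1 and Ccl17 rose by 0.89 to 1.05 on the log2 scale, and Ccl12 fell by 1.48. Over all 17775 features tested, 8.35% passed the same threshold (4.34% higher and 4.01% lower), and 18.5% of the members did. That share is no support for the members as a group, because Ccl22, Ccl17 and Ccl12 entered the test only through the group where they are high. Among the 22 members well above background on all 6 heart arrays 3 passed (13.6%, beside 8.58% of all such features), namely Ccl6, Cxcl1 and Cxcl14. The median difference was 0.06 over the members and 0.03 over all features. The groups did not overlap for 7 of 27 members (25.9%), beside 32.3% of all features. Of all heart calls 52% were higher, against 64.1% with each array's median subtracted and 30.5% without scaling. None of the 5 receptors tested passed.

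Ccl6, a macrophage and neutrophil chemokine of rodents that signals through Ccr1, stood at 1.91, 2.24 and 1.93 in the vehicle hearts and 3.17, 2.99 and 3.04 in the amiodarone hearts. It was higher by 1.04 (SE 0.15, adjusted p = 0.00792). Every amiodarone pool was above every vehicle pool, and the processed signals were 396, 777 and 501 against 928, 1199 and 907. The difference was 1.01 within the first slide and 1.11 within the second.

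Ccl22 and Ccl17, the ligands of Ccr4 on helper and regulatory T cells, were also higher in the amiodarone hearts. Ccl22 stood at -3.59, -3.51 and -3.79 in vehicle and -2.37, -2.69 and -2.70 in amiodarone, a difference of 1.05 (SE 0.16, adjusted p = 0.00964). Ccl17 stood at -3.59, -2.99 and -3.22 in vehicle and -2.46, -2.60 and -2.03 in amiodarone, a difference of 0.90 (SE 0.22, adjusted p = 0.0459). In neither gene did the groups overlap, but both signals were faint, and in both vehicle groups only 2 of 3 arrays were well above background. The other Ccl22 probe was not well above background on any heart array and differed by -0.19. The receptor Ccr4 was not well above background on any heart array.

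Cxcl1, a neutrophil chemokine acting through Cxcr2, stood at -3.14, -3.26 and -3.08 in vehicle and -1.96, -2.14 and -2.71 in amiodarone hearts, a difference of 0.89 (SE 0.21, adjusted p = 0.0423). All 3 amiodarone pools lay above the vehicle pools, which were within 0.18 of each other. Its neighbours Cxcl2, Cxcl3 and Cxcl6 were not tested. Ccl12, a Ccr2 ligand related to Ccl2, was the member that fell. It stood at -1.96, -1.49 and -2.07 in vehicle hearts, where all 3 arrays were well above background, and -2.55, -3.54 and -3.87 in amiodarone hearts, where 1 of 3 was. The difference was -1.48 (SE 0.34, adjusted p = 0.0393) and the groups did not overlap.

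These heart calls were sensitive to single pools. Leaving out vehicle pool 1, 2 or 3 gave 1, 2 and 1 members past the threshold, all of them among the 5, and leaving out amiodarone pool 2 gave 2, also among them. Leaving out amiodarone pool 1 or 3 gave 4 each, of which 3 were among the 5. Ccl6 passed in all 6 of these fits, Ccl22 in 4, Ccl12 and Cxcl1 in 1 each and Ccl17 in 0. Within slides the values for Cxcl1 were 1.15 and 0.38, for Ccl17 0.76 and 1.19, for Ccl22 1.02 and 1.10 and for Ccl12 -1.32 and -1.80. Ccl22 did not pass without vehicle pool 1 (1.07, adjusted p = 0.0504) or 3 (0.96, adjusted p = 0.0514), Cxcl1 passed only without amiodarone pool 3 and Ccl12 only without amiodarone pool 1. Where they did not pass, the differences lay between 0.74 and 0.93 for Cxcl1, between 0.74 and 1.04 for Ccl17 and between -1.60 and -1.21 for Ccl12. After normexp correction Ccl6 passed at 0.88, while Ccl22 (0.24), Cxcl1 (0.31), Ccl17 (0.28) and Ccl12 (-0.31) did not, and without scaling Ccl12 passed (-1.62) and the others did not. Without the filter on dim probes 0 of 50 members passed, beside 0.795% of all features. Of the 27 tested members, 8 had an unadjusted p below 0.05 in the limma fit.

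**Figure D2:**
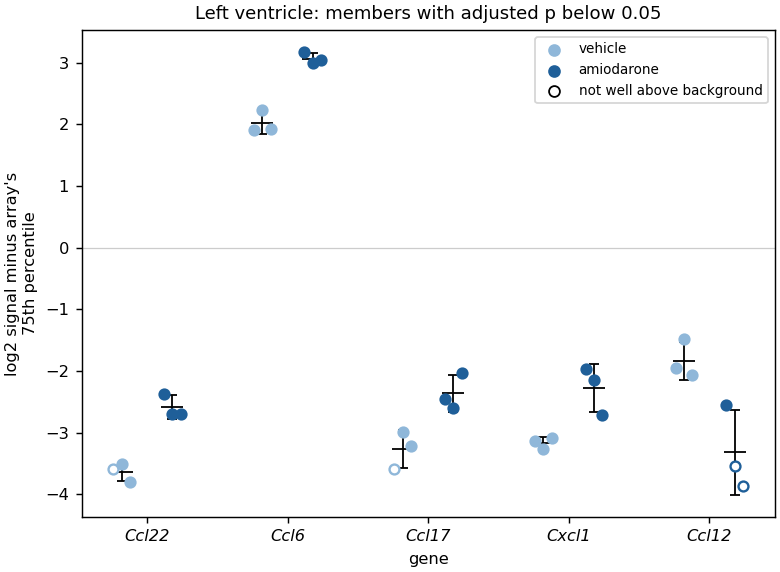
Left ventricle levels (log2 signal minus the array's 75th percentile) of the 5 members with adjusted p below 0.05; points are single arrays, open points are arrays on which the probe was not well above background, and bars give the mean and SD of 3 pools. Ccl6 lay between 1.91 and 2.24 in vehicle and between 2.99 and 3.17 in amiodarone, and Ccl12 is the gene whose amiodarone pools are lower.

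Several other ligands in heart did not pass. Cxcl14, a homeostatic chemokine of epithelia and fibroblasts, stood at -2.76, -2.30 and -2.61 in vehicle and -1.41, -1.64 and -0.05 in amiodarone, a difference of 1.52 (SE 0.39, adjusted p = 0.0563). Its groups did not overlap, and amiodarone pool 3 was its highest. Cxcl13, the ligand of Cxcr5, differed by 0.71 (SE 0.40, adjusted p = 0.318), with -0.01 within the first slide and 2.14 within the second. Ccl3, a ligand of Ccr1, differed by 0.59 (SE 0.18, adjusted p = 0.0908). The monocyte chemokines Ccl2 and Ccl7 differed by -0.69 (SE 0.25, adjusted p = 0.138) and -0.61 (SE 0.30, adjusted p = 0.263). Among the interferon-induced ligands of Cxcr3, Cxcl9 differed by -0.46 (SE 0.24, adjusted p = 0.287), Cxcl10 by -0.26 (SE 0.24, adjusted p = 0.551) and Cxcl11 by 0.09 (SE 0.29, adjusted p = 0.88).

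Homeostatic ligands and Cx3cl1 did not pass in heart either. Cxcl12 stood at 5.25, 5.35 and 5.31 in vehicle and 5.53, 5.20 and 5.38 in amiodarone, a difference of 0.07 (SE 0.14, adjusted p = 0.807). Ccl19 differed by -0.34 (SE 0.23, adjusted p = 0.408), Ccl21b by -0.19 (SE 0.42, adjusted p = 0.815) and Cx3cl1 by -0.15 (SE 0.14, adjusted p = 0.553). The groups overlapped for all 4 of these genes. Of the receptors tested, Cxcr4 stood at -0.24 (SE 0.20, adjusted p = 0.492), Cxcr7 at 0.23 (SE 0.22, adjusted p = 0.553), Ccr1 at 0.29 (SE 0.48, adjusted p = 0.743) and Ccr10 at -0.49 (SE 0.21, adjusted p = 0.201), each value a log2 difference. A p that misses the threshold does not show that these levels were alike.

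Genes on both sides of the receptors were examined from 2 further lists. Of 30 tested genes of chemokine receptor signalling, 1 fell in heart, Dpp4, a peptidase that trims chemokines (-0.72), and 0 rose. Of 7 tested ligand and receptor genes outside the naming rule, Pf4, the platelet chemokine also called Cxcl4, rose by 0.58 (adjusted p = 0.0437), and the others, such as Cmklr1 at -1.15 and Cd74 at -0.44, did not pass. Some lists of cell type markers moved in the same hearts and others did not. Of 12 monocyte and macrophage markers 3 rose (C1qb 0.89, Mrc1 1.27 and Lyve1 1.04), and the summed level of the list was 47.2 to 68.1 in vehicle and 85.1 to 102 in amiodarone (sum over the whole list, tested or not, of signals divided by the 75th percentile). Of 4 neutrophil markers tested S100a8 (2.13) and S100a9 (1.89) rose and Lcn2 fell (-0.74), with summed levels of 2.75 to 3.30 and 3.66 to 4.27. Of 10 fibroblast markers 7 fell, with sums of 268 to 356 and 147 to 197. Of 14 red cell markers 9 fell, with sums of 527 to 695 and 180 to 253. Of 2 B cell markers 1 fell, with sums of 5.48 to 8.21 and 1.92 to 2.09. No marker passed among 5 of T cells, 8 of natural killer cells and 6 of eosinophils, basophils and mast cells. Of 12 endothelial markers 1 fell, of 4 platelet markers 1 fell and of 14 cardiomyocyte markers 1 rose. The part of these cell types in the chemokine values was not tested.

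In whole blood the receptor Ccr1 rose together with its ligands Ccl6, Ccl3 and Ccl5, and the lymphocyte receptors Ccr7, Cxcr3 and Ccr6 rose too. The 5 that were measured in both groups rose by 0.66 to 2.51 on the log2 scale. Ccr1 and Ccr6 were below background on all 3 vehicle arrays and entered the test only through the amiodarone group, so a lower bound is given for them. The share of members past the threshold was near that of all features. Of 21 members tested 14 passed (66.7%), 7 higher and 7 lower after scaling, beside 67.9% of all 15929 features (41% higher and 26.8% lower). The median difference was 0.33 over the members and 0.45 over all features. The groups did not overlap for 14 of 21 members (66.7%), beside 73.8% of all features. Without scaling 14 members also passed, but all 14 were higher and 0 were lower, and of all calls 97.5% were higher, against 60.4% after scaling and 47.1% in the authors' deposited values. The median over all features was 0.45 after scaling, 0.73 with each array's median subtracted and 2.04 unscaled. With normexp background correction 7 members passed, 3 higher and 4 lower, beside 8.14% of all features, and 18.9% of all calls were then higher. The 7 higher calls are described first. Their direction was the same under each scaling tried. Leaving out the scaling, or subtracting each array's median, raised every blood difference by a constant, so there a higher call could not turn lower. All 7 lower calls were kept with quantile scaling and in the authors' deposited values, where 4 of the higher calls were kept.

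**Figure D3:**
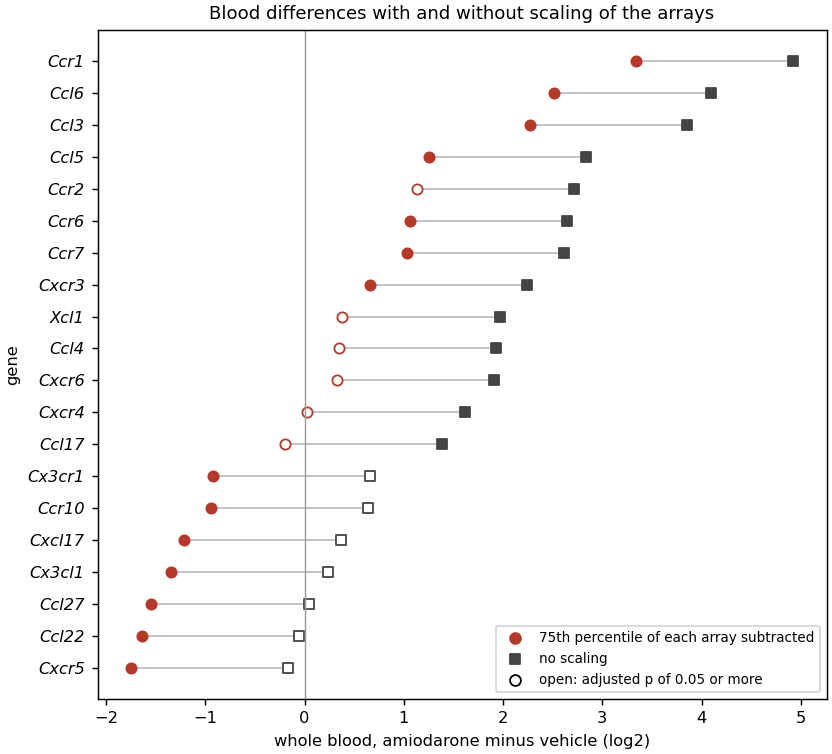
Amiodarone minus vehicle in whole blood (log2) for 20 of the 21 tested members, as circles with each array's 75th percentile subtracted and as squares with no scaling; filled symbols have adjusted p below 0.05. The lines all have the same length of 1.58, and 5 of the 7 genes that were lower after scaling (Ccl27, Ccr10, Cx3cl1, Cx3cr1 and Cxcl17) stood above 0 without it.

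Ccr1, the receptor for Ccl3, Ccl5 and Ccl6 on monocytes and neutrophils, was among the members that rose in blood. It stood at -1.70, -3.21 and -2.06 in the vehicle pools, none of them well above background, and 1.11, 1.12 and 0.82 in the amiodarone pools. The processed signals were 7.76, 2.19 and 5.76 against 181, 118 and 129. It was at least 5.12-fold higher with amiodarone, with a fitted difference of 3.34 (SE 0.38, adjusted p = 0.000988), and passed in 6 of 6 fits that left out a pool. The difference was 4.93 without scaling and 0.66 after normexp correction (adjusted p = 0.0394).

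Of the ligands of this receptor, 3 rose with it. Ccl6 stood at 5.20, 5.17 and 5.65 in vehicle and 8.05, 7.68 and 7.83 in amiodarone, a difference of 2.51 (SE 0.21, adjusted p = 0.000946). Ccl3 stood at 1.82, 1.41 and 2.15 and 4.48, 3.57 and 4.15, a difference of 2.27 (SE 0.30, adjusted p = 0.00123). Ccl5, a product of T cells, natural killer cells and platelets, stood at 6.24, 6.36 and 6.65 and 7.71, 7.47 and 7.83, a difference of 1.25 (SE 0.20, adjusted p = 0.00193). In all 3 genes every amiodarone pool was above every vehicle pool, and the unscaled differences were 4.10, 3.85 and 2.84. After normexp correction Ccl6 was higher by 2.40 and Ccl3 by 1.56, and both passed. Ccl5 did not pass after normexp correction (1.13, adjusted p = 0.118). Ccl4, the neighbour of Ccl3, stood at -0.23, -0.03 and -0.33 in vehicle and 0.02, 0.40 and 0.03 in amiodarone, and its difference of 0.35 (SE 0.19, adjusted p = 0.14) did not pass, although the unscaled value of 1.93 did.

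Lymphocyte receptors made up the other higher calls. Ccr7, which brings naive T cells and dendritic cells to lymph nodes, stood at 0.99, 0.09 and 0.15 in vehicle and 1.36, 1.51 and 1.46 in amiodarone, a difference of 1.03 (SE 0.27, adjusted p = 0.0116). Cxcr3 of T helper and natural killer cells stood at 0.09, 0.21 and 0.00 and 0.86, 0.76 and 0.66, a difference of 0.66 (SE 0.17, adjusted p = 0.0108). The groups did not overlap in either gene, and the unscaled differences were 2.62 for Ccr7 and 2.24 for Cxcr3. Ccr6, the receptor for Ccl20, stood at -1.67, -1.16 and -2.56 in vehicle, with none of the 3 arrays well above background, and -0.43, -0.92 and -0.84 in amiodarone. It was at least 1.50-fold higher, with a fitted difference of 1.06 (SE 0.36, adjusted p = 0.0321) that was 2.65 unscaled. It did not pass without vehicle pool 1 (1.13, adjusted p = 0.0545) or without amiodarone pool 1 (0.91, adjusted p = 0.102), 2 (1.16, adjusted p = 0.0567) or 3 (1.12, adjusted p = 0.0678). Ccr7, Cxcr3 and Ccr6 did not pass after normexp correction or in the authors' deposited values.

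Past the threshold as lower after scaling, and past it in neither direction without scaling, were 4 ligands and 3 receptors. Cxcr5 stood at 1.98, 1.99 and 1.55 in vehicle and 0.23, 0.36 and -0.32 in amiodarone, a difference of -1.75 (SE 0.24, adjusted p = 0.0014) that was -0.17 unscaled (adjusted p = 0.68). Ccl22 stood at 2.48, 2.50 and 2.09 and 0.94, 1.02 and 0.21, a difference of -1.64 (SE 0.26, adjusted p = 0.00215) that was -0.05 unscaled. Its other probe differed by -2.07 after scaling. For both genes the scaled groups did not overlap, while the processed signals did: those of Cxcr5 were 99.8, 80.1 and 70.8 in vehicle and 97.8, 69.7 and 58.7 in amiodarone.

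The remaining 5 lower calls changed sign without scaling. Ccl27, a skin-homing chemokine, differed by -1.54 (SE 0.21, adjusted p = 0.00131) scaled and 0.04 unscaled. Its receptor Ccr10 differed by -0.94 (SE 0.21, adjusted p = 0.00689) scaled and 0.64 unscaled. Cxcl17, a mucosal chemokine, differed by -1.21 (SE 0.23, adjusted p = 0.00344) scaled and 0.37 unscaled. Cx3cl1 differed by -1.34 (SE 0.28, adjusted p = 0.00497) scaled and 0.24 unscaled, and its receptor Cx3cr1 by -0.93 (SE 0.32, adjusted p = 0.0346) scaled and 0.66 unscaled. Cx3cr1 did not pass without vehicle pool 1 (-0.82, adjusted p = 0.0909) or 2 (-0.72, adjusted p = 0.103), or without amiodarone pool 1 (-0.91, adjusted p = 0.0864) or 3 (-0.75, adjusted p = 0.115). None of the 5 unscaled values passed. With quantile scaling and in the authors' deposited values all 7 lower calls, Cxcr5 and Ccl22 among them, passed as lower. After normexp correction Cxcr5, Ccl22, Ccl27 and Cxcl17 did, and Ccr10, Cx3cl1 and Cx3cr1 did not.

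**Figure D4:**
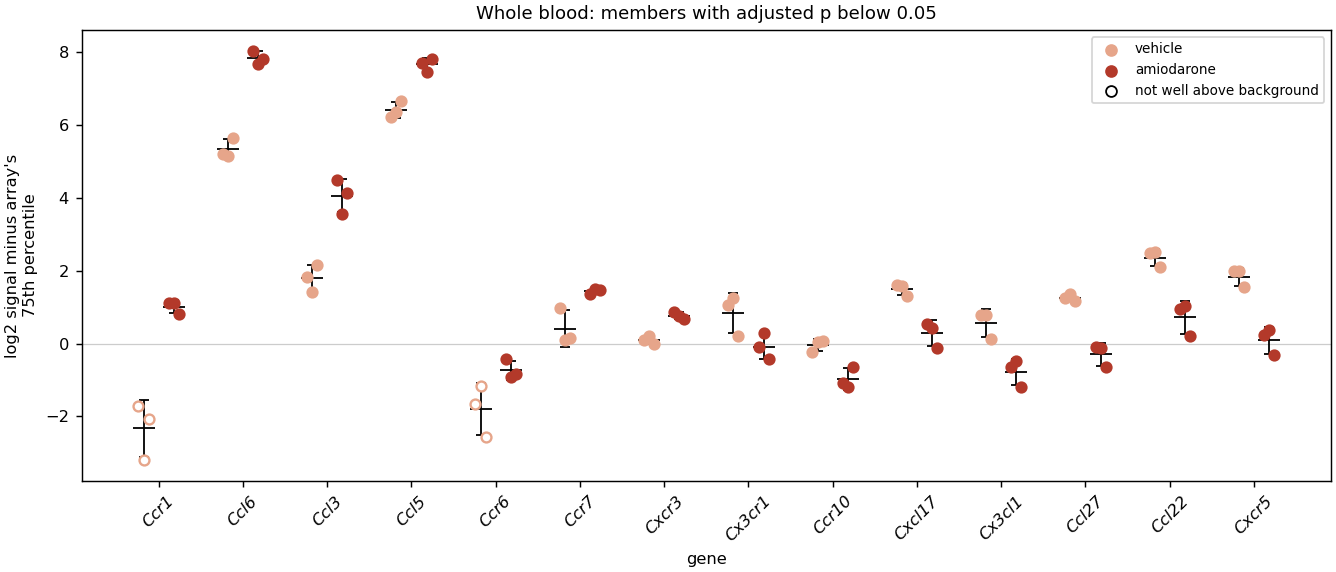
Whole blood levels (log2 signal minus the array's 75th percentile) of the 14 members with adjusted p below 0.05; points are single arrays, open points are arrays on which the probe was not well above background, and bars give the mean and SD of 3 pools. Ccr1, Ccl6, Ccl3, Ccl5, Ccr6, Ccr7 and Cxcr3 were higher with amiodarone, and the other 7 were lower on this scaled axis, of which 5 stood above 0 without scaling.

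Members that did not pass in blood included Ccr2, the receptor for Ccl2, at 1.13 (SE 0.49, adjusted p = 0.0726), with 0 of 3 vehicle arrays and 3 of 3 amiodarone arrays well above background. Cxcr6 differed by 0.33 (SE 0.51, adjusted p = 0.58), the lymphocyte chemokine Xcl1 by 0.38 (SE 0.28, adjusted p = 0.244) and Ccl17 by -0.20 (SE 0.29, adjusted p = 0.556). Without scaling all 4 passed as higher, Ccr2 by 2.72, Cxcr6 by 1.91, Xcl1 by 1.97 and Ccl17 by 1.38, so that Ccl17 changed sign. Cxcr4, the receptor of Cxcl12, gave 2 answers. Its brighter, second probe stood at 2.65, 3.17 and 4.0 in vehicle and 3.19, 3.48 and 3.24 in amiodarone, a difference of 0.03 (SE 0.34, adjusted p = 0.942) that was 1.61 unscaled and then passed. Its first probe stood at 1.17, 1.25 and 0.62 and 2.62, 2.25 and 2.39, a difference of 1.40 (SE 0.22). Both probes cleared the background flag on every blood array. The groups overlapped for the brighter probe, whose highest value was in vehicle pool 3, and did not for the other. In heart the probes differed by -0.24 and -0.21.

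Beside these members, 32 of 41 tested genes of chemokine receptor signalling were higher in amiodarone blood and 2 lower after scaling, beside 41% and 26.8% of all features. The summed level of the list was nonetheless lower after scaling, at 1047 to 1157 in vehicle and 858 to 909 in amiodarone. Its unscaled sums were 23360 to 26750 and 47770 to 71670. Without scaling 40 of its tested genes were higher and 0 lower, where 97.5% of all calls were higher. The smallest adjusted p among the genes higher after scaling were those of Ptk2b (1.46), Itgb2 (1.50) and Jak2 (1.42). Ptk2b is a kinase downstream of the receptors, and Itgb2 is the common chain of the leukocyte integrins. Further down the list, Rac2, a GTPase of leukocyte movement, rose by 1.10 and Gnai2, an inhibitory G protein subunit, by 0.96. In the same order the unscaled differences were 3.05, 3.08, 3.01, 2.69 and 2.55. Jak3 (-1.92) and Arrb1 (-0.68) were lower on the scaled values, but without scaling Jak3 did not pass (-0.33, adjusted p = 0.371) and Arrb1 passed as higher (0.90). Of 8 tested ligand and receptor genes outside the naming rule, the platelet chemokine Ppbp rose by 1.09 and Cklf by 0.78 (2.68 and 2.37 unscaled). Pitpnm3 was lower only after scaling (-1.91, and -0.33 with adjusted p = 0.411 unscaled), and Cxcr2 passed only without it (0.34, adjusted p = 0.18, and 1.92 unscaled). So did Ccrl2 (0.35 and 1.94 unscaled), Cd74 (0.27 and 1.85), Mif (0.55 and 2.14) and Pf4 (0.32 and 1.90). Markers of cell types moved too, and are given on the scaled values first. Higher were 9 of 11 neutrophil markers (summed level 74.6 to 123 in vehicle and 278 to 439 in amiodarone), 9 of 11 natural killer cell markers (127 to 153 and 262 to 284), 9 of 12 T cell markers (276 to 339 and 387 to 426), 6 of 11 monocyte and macrophage markers (223 to 291 and 550.4 to 651) and 5 of 7 platelet markers (343 to 626 and 726 to 1297). Of 7 B cell markers 2 were higher (41.1 to 50.8 and 44.4 to 49.9). Against their lists, the neutrophil marker Np4 (-0.84) and the macrophage marker C1qb (-2.20) were lower. Without scaling neither passed (0.75, adjusted p = 0.0506, and -0.61, adjusted p = 0.104). Lists of cells other than blood cells moved as well. Among 5 endothelial markers 3 were higher and 1 lower (17.6 to 25.6 and 33.7 to 61.6). Among 3 cardiomyocyte markers 2 were higher and 1 lower (9.58 to 10.4 and 15.3 to 20.8). Among 3 fibroblast markers 2 were lower and 0 higher (21.4 to 24.1 and 10.6 to 11.9). Lower were 15 of 17 red cell markers, with summed levels of 19423.5 to 29632 in vehicle and 5178 to 8288 in amiodarone. Without scaling the higher counts became 10 of 11 for neutrophils, 11 of 11 for natural killer cells, 12 of 12 for T cells, 10 of 11 for monocytes and macrophages, 7 of 7 for platelets and 7 of 7 for B cells. For red cells they became 4 lower and 1 higher of 17, and the unscaled summed signals of that list overlapped, at 490900 to 714300 in vehicle and 398700 to 608100 in amiodarone. The part of these cell types, and of the gap in signal between the blood groups, in the chemokine values was not tested.

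The difference between the tissues in response to the drug was tested in a fit of all 12 arrays. Of 34 members 16 passed, 4 with a higher value in blood and 12 with a lower one, and 46.3% of all 20426 features passed (21.8% higher and 24.6% lower). For 7 of the 16 the probe compared was not well above background on any blood array and for 2 on any heart array, so only 1 tissue measured that probe. Without scaling 16 members also passed, 15 higher in blood and 1 lower, and the share of all calls that were higher went from 47% to 98.5%. Among the 14 genes tested in both tissues 8 passed, 4 in each direction. Of all 13249 features tested in both tissues 51.3% passed, and 63.5% of those calls were higher in blood.

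Ccl3 (1.68, SE 0.37, adjusted p = 0.00454), Ccl6 (1.47, SE 0.26, adjusted p = 0.00159) and Ccl5 (0.95, SE 0.28, adjusted p = 0.0165) had larger values in blood than in heart. So had Ccr1, with a fitted value of 3.05 (SE 0.69, adjusted p = 0.00516), but its blood vehicle arrays were all below background, so the size was not measured, and it did not pass after normexp correction (0.59, adjusted p = 0.124). Ccl6 was past the threshold in both tissues taken alone. Ccl27, Ccl22, Cx3cl1 and Ccl17 had lower values in blood than in heart after scaling, at -1.51, -1.45, -1.19 and -1.10, and each of the 4 turned positive without scaling. Ccl22 was compared, and changed sign, through a probe that was below background on every heart array. Its other probe was well above background on every blood array, and in heart on 3 amiodarone and 2 vehicle arrays. In the fit of probes tested in both tissues that probe gave -3.11 (adjusted p = 9.25e-05). Ccl17 passed in 5 of 12 fits that left out a pool and in neither of the fits with quantile scaling (-0.99, adjusted p = 0.0915) and array median scaling (-0.91, adjusted p = 0.126). Its values without a pool lay between -1.33 and -0.87. The other 7 of these 8 genes passed in 12 of 12 such fits, in which Ccl22 moved to between -3.28 and -2.87 without blood vehicle pool 1 or 2 or any of the 3 blood amiodarone pools, where its other probe was the one tested. After normexp correction 4 of the 34 members passed, beside 8.85% of all features. Ccl3 and Ccl6 then had higher values in blood, and Ccl22 and Cxcr5 lower ones. For Ccl4, Cxcr4, Xcl1, Ccr10 and Cxcl17 the difference between tissues did not pass.

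**Figure D5:**
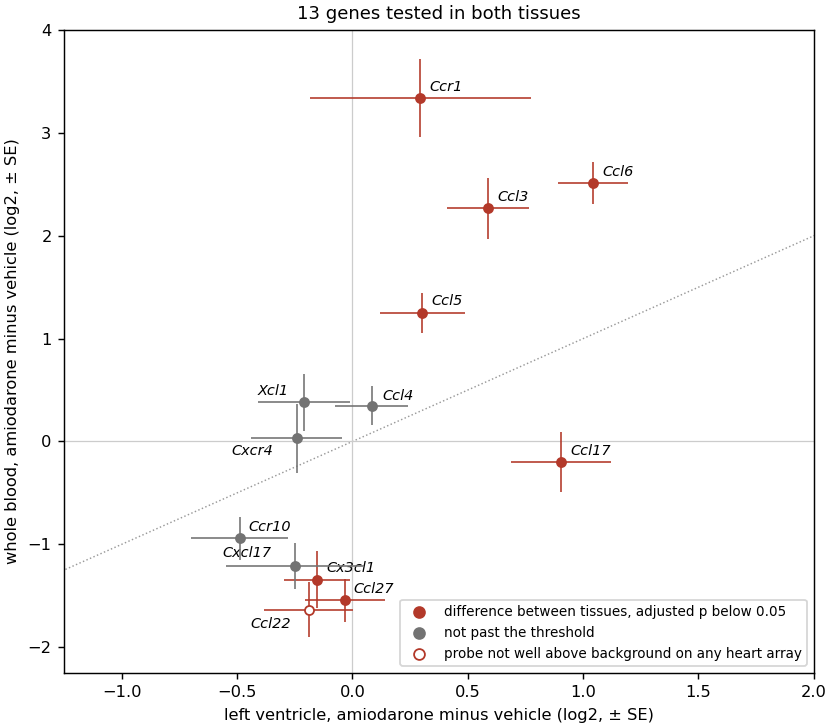
Amiodarone minus vehicle (log2, ± SE) in left ventricle on the horizontal axis and whole blood on the vertical axis for 13 of the 14 genes tested in both tissues; the dotted line marks equal values, red marks an adjusted p below 0.05 for the difference between tissues, and the open symbol is Ccl22 through a probe not well above background in heart. Ccr1, Ccl6, Ccl3 and Ccl5 lie above the line. Ccl17, Cx3cl1, Ccl27 and Ccl22 lie below it on this scaled measure and, through the probes shown, would not without scaling.

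Many chemokine genes lie next to each other, and neighbours did not always share a value. On chromosome 10 (rn4, chr10:70257919-70322401) Ccl2, Ccl7 and Ccl12 differed in heart by -0.69, -0.61 and -1.48, of which the last passed, and Ccl11 between them was not well above background on any array. Further along (chr10:71606089-71760326) Ccl5, Ccl6, Ccl3 and Ccl4 differed in blood by 1.25, 2.51, 2.27 and 0.35, of which the first 3 passed, and Ccl9 was likewise below it throughout. On chromosome 19 (chr19:10641383-10698826) Ccl17 and Ccl22 rose in heart, and Cx3cl1, which lies between them, differed by -0.15. On chromosome 8 several receptor genes stand together, and in blood Ccr1 rose while Ccr2 (1.13) and Cxcr6 (0.33) did not pass and Ccr1l1 and Xcr1 were below background on every array.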

How the data were processed

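Processed signal intensity per spot came from Agilent Feature Extraction 9.5.1.1, background-subtracted and not normalized between arrays, per the file headers. Flags for spots well above background and for outliers came with it. The authors' deposited value table holds intensity normalized separately in each tissue by a method not given in the sources used here, and served as an alternative.

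Spots flagged as outliers were dropped, spots of a probe averaged, and log2 values scaled to each array's 75th percentile. Probes were tested if well above background in all 3 pools of some group, each symbol by its brightest passing probe. limma 3.58.1 (R 4.3.3) gave two-sided moderated tests with Benjamini-Hochberg adjustment over all features, threshold 0.05. An exact test of 3 against 3 pools cannot go below p = 0.1. P-values measure the spread between pools, and 3 arrays a group limit the precision. The script was tested on simulated data. Promoters were matched by symbol to RefSeq (GRCr8). The text was to name all 50 members; 1 is counted but not reported here by name. Members and gene lists were chosen with earlier results of these data known. Alternatives covered background correction, scaling, filters, probes, slide, pairing and single pools.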

Additional observations from a re-analysis of the deposited data

Results flagged for a closer look

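On the scaled values, the test of the difference between the drug effects in blood and heart, in the fit of all 12 arrays, passed for 16 members. Of these calls 5 were kept in the same direction without scaling and 4 after normexp correction. The values are the drug effect in blood minus the drug effect in heart on the log2 scale. They were 1.68 for Ccl3, 1.47 for Ccl6 and 0.95 for Ccl5, which had the larger value in blood. The fitted value was 3.05 for Ccr1, whose blood vehicle arrays were all below background. They were -1.51 for Ccl27, -1.19 for Cx3cl1 and -1.10 for Ccl17, which were measured in both tissues and were lower in blood. They were -1.45 for Ccl22 and -2.38 for Cxcr5, whose compared probes were not well above background on any heart array. The last 7 were not well above background on any blood array: Cxcl14 at -2.97, Cxcl1 at -2.38, Cxcl13 at -2.20, Cxcl11 at -1.80, Cxcr7 at -1.78, Ccl19 at -1.21 and Cxcl12 at -1.13. For these the blood part of the value is the gap between a background signal and the 75th percentile of the array. Of the 16, Cxcl12 passed in 2 of 12 fits that left out a pool, with values of -1.53 to -0.89, and Ccl17 in 5, while the other 14 passed in 12. For the 7 below background on every blood array such fits do not test a blood response, because each fit keeps the same scaling. Cxcl12 also did not pass with array median scaling (-0.94, adjusted p = 0.0697). Groups of 3 pools are too small for a test of single outlying pools.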

How the results depend on the processing

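In heart the 5 members past the threshold became 2 after normexp correction, 2 without scaling, 0 without a filter on dim probes, 3 with the stricter filter and 0 on the first slide alone. Of all features 8.23%, 4.21%, 0.795%, 8.58% and 1.54% passed in these settings. Leaving out 1 pool gave 1 to 4 members. Of 14 in blood, normexp correction gave 7 (8.14% of all features passed) and no filter 39 (69.9%), and leaving out 1 pool gave 12 to 14. For the difference between tissues, 16 became 4 after normexp correction, 27 without a filter, 5 with the stricter filter and 8 among genes tested in both tissues, an alternative chosen after seeing the data. Of all features 8.85%, 53.4%, 59% and 51.3% passed in these settings. The tissue contrasts fell to 9 (vehicle) and 8 (amiodarone) with the stricter filter, which tested 9 members.

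Without scaling, the blood values of Ccl27 (0.041), Ccr10 (0.64), Cx3cl1 (0.24), Cx3cr1 (0.66) and Cxcl17 (0.37) turned positive. So did the tissue differences of Ccl17 (0.62), Ccl19 (0.51), Ccl22 (0.28, through the probe below background in heart), Ccl27 (0.21), Cx3cl1 (0.53) and Cxcl12 (0.59). For Ccl19 and Cxcl12 the sign also changed after normexp correction (0.43 and 0.013) and quantile scaling (0.21 and 0.47). The cause was not tested.

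With the replicate number as a block, 2 members passed in heart, 15 in blood and 16 for the difference between tissues. The labels do not tie equal numbers to shared rats. In their deviations, same-numbered heart pools correlated at -0.17, -0.24 and 0.32 and blood pools at 0.08, 0.17 and 0.31. Heart vehicle pool 1 with amiodarone pool 2 gave 0.35 and vehicle pool 2 with amiodarone pool 1 gave 0.34. The other heart pairs of unlike number lay between -0.20 and -0.08, and such blood pairs between -0.30 and 0.17. With 3 pools a group these values cannot decide whether pools were paired. The slide block was not run for the tissue contrasts. Signal over background limits 16 members, which were not tested in either tissue.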

Other observations

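Some members outside the tests were seen on single arrays. Ccr3, the eotaxin receptor of eosinophils, was well above background on 1 of 12 arrays, the second blood vehicle pool, at 2.38, where the other vehicle pools stood at -1.40 and -1.61. Ccl24, an eotaxin, was above background in 2 of 3 vehicle hearts and 0 of 3 amiodarone hearts, at -3.04, -3.39 and -4.02 against -4.56, -4.29 and -3.63. Cxcl2 was above background on 1 array of each heart group, and Ccr9 on 1 blood amiodarone array.

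Second probes were measured for several genes. The other Cxcl12 probe differed in heart by -0.34, beside 0.07 for the probe tested, and both were well above background on every heart array. The other Cx3cl1 probe differed in heart by -0.37, beside -0.15, and the other Ccl7 probe by -0.49, beside -0.61.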
